A study of Mus musculus with 2 samples.

Results

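The genes described here are the forkhead (Fox) and Sox transcription factors of the mouse, measured in embryonic kidney. They are the protein-coding genes whose symbol is Fox followed by a letter from a to s and a number, or Sox followed by a number alone. The rule gave 63 of the 43346 mouse genes in the tables, 44 of them Fox genes in 19 lettered subfamilies and 19 of them Sox genes in 8 groups, and all 63 were matched. The study held 1 group, kidneys of mouse embryos of the B6NCrl strain at embryonic day 15.5, with no treatment and no altered allele named in the labels. Its 2 libraries of total RNA were made from separate pools of both sexes, 78 embryos in replicate 1 and 62 in replicate 2, with 10 ng of RNA each. A pooled whole organ mixes all its cell types, so fewer cells of a type and less RNA per cell cannot be told apart.

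Forkhead proteins bind DNA through a winged-helix domain, and several of them can open closed chromatin. Sox proteins bind the minor groove of DNA through a high-mobility-group (HMG) box, bend it, and usually act with a partner factor. In the developing kidney Foxd1 marks the progenitors of the stroma, Foxc1 and Foxc2 act in mesenchyme and in podocytes, Foxi1 directs the acid-secreting intercalated cells of the collecting duct, Sox9 acts in the branching ureteric tips, and Sox7, Sox17 and Sox18 act in vessels.

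The libraries held 36244861 and 39415002 expected counts, that is, reads per gene as estimated by the authors. Over genes their counts differed by 11.3 times the chi-square that sampling alone gives, so they were not copies of each other. Levels are in TPM, relative abundances corrected for transcript length so that genes can be set beside each other. They are given for replicate 1 and then replicate 2, or as mean ± SD (n = 2). All 6 nephron progenitor, 8 podocyte, 5 ureteric tip and 9 stromal genes listed were above 1 TPM in both libraries. So were all 7 skeletal muscle, 6 liver, 5 adrenal cortex, 5 chromaffin cell and 6 erythroid genes listed. This rule alone therefore does not tell kidney from other tissues. Markers of neighbouring tissues differed in level between the pools. Summed over 5 genes each, chromaffin cell markers were at 17.99 and 96.5 TPM and adrenal cortex markers at 37.9 and 124.5 TPM, while 6 gut endoderm markers summed to 45.6 and 3.11 TPM and 7 skeletal muscle markers to 365.7 and 202.6 TPM. With 2 libraries in 1 group no p was computed. Differences between genes were instead read against the replicate error, the size of log2 TPM ratio between the libraries that 95% of detected genes of like abundance stayed under. It was 0.92 between 1 and 3 TPM, 0.79 between 3 and 10, 0.37 between 10 and 30, 0.27 between 30 and 100 and 0.25 above. This limit compares each gene with itself. It does not cover errors that differ from gene to gene, such as those of the transcript models.

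Promoters of 41 of the 63 genes were in the RefSeq promoter table (build GRCm38.p6), which gives 250 bases before and 50 after a listed start of a gene. The 250 bases before the start are printed for 4 genes, because they set a kidney-expressed gene with few CG dinucleotides beside an expressed gene with many and beside genes that have many and were not detected. Their values were known when they were picked. The capitals mark each CG.

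Foxi1 (11.1 and 10.7 TPM), chr11:34208090-34208339, minus strand: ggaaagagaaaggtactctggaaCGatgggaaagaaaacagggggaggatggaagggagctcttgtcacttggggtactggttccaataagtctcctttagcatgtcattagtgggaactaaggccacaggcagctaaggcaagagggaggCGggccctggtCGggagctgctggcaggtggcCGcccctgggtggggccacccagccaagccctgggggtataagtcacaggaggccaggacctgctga

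Foxk2 (6.60 and 6.45 TPM), chr11:121259737-121259986, plus strand: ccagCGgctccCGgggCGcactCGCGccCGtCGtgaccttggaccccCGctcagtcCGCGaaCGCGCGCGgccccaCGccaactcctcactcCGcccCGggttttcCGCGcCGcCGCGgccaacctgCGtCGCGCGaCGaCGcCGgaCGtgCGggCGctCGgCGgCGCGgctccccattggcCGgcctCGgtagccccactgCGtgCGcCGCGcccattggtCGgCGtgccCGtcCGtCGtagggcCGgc

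Sox1 (0.01 and 0 TPM), chr8:12395269-12395518, plus strand: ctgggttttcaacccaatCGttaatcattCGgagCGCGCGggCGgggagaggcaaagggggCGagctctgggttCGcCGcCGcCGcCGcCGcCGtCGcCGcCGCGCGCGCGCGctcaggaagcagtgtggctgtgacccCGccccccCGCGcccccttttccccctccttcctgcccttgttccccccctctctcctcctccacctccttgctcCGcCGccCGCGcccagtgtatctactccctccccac

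Foxi3 (0 counts in both libraries), chr6:70956356-70956605, plus strand: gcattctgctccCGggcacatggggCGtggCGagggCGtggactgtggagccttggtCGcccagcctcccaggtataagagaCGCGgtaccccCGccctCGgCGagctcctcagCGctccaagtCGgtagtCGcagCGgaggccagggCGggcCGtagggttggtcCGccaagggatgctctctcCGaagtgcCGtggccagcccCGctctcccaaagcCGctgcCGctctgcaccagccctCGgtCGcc

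The Foxi1 stretch holds 4 CG dinucleotides, that of Foxk2 48, that of Sox1 29 and that of Foxi3 24. In the full windows of 300 bases the counts were 6, 59, 37 and 31.

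Of the 44 Fox genes, 23 were detected, meaning 1 TPM or more in both libraries, and of the 19 Sox genes 11 were. Over all 21474 protein-coding genes matched by name, 62.3% were detected by the same rule, above the 52.3% of Fox and 57.9% of Sox genes. At 5 TPM or more in both libraries there were 15 Fox and 9 Sox genes, and at 10 TPM or more 8 and 7. The median Fox gene stood at 1.83 and 2.47 TPM and the median Sox gene at 5.12 and 4.46 TPM, beside 5.13 and 5.34 TPM for protein-coding genes. The 44 Fox genes together summed to 286.0 and 288.9 TPM, and the 19 Sox genes to 256.7 and 250.1 TPM. The 5 highest of the 19 Sox genes held 78.9% and 78.0% of the Sox total, and the 5 highest of the 44 Fox genes 62.2% and 60.7% of the Fox total; the families differ in size, so these shares do not rank them.

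**Figure D1:**
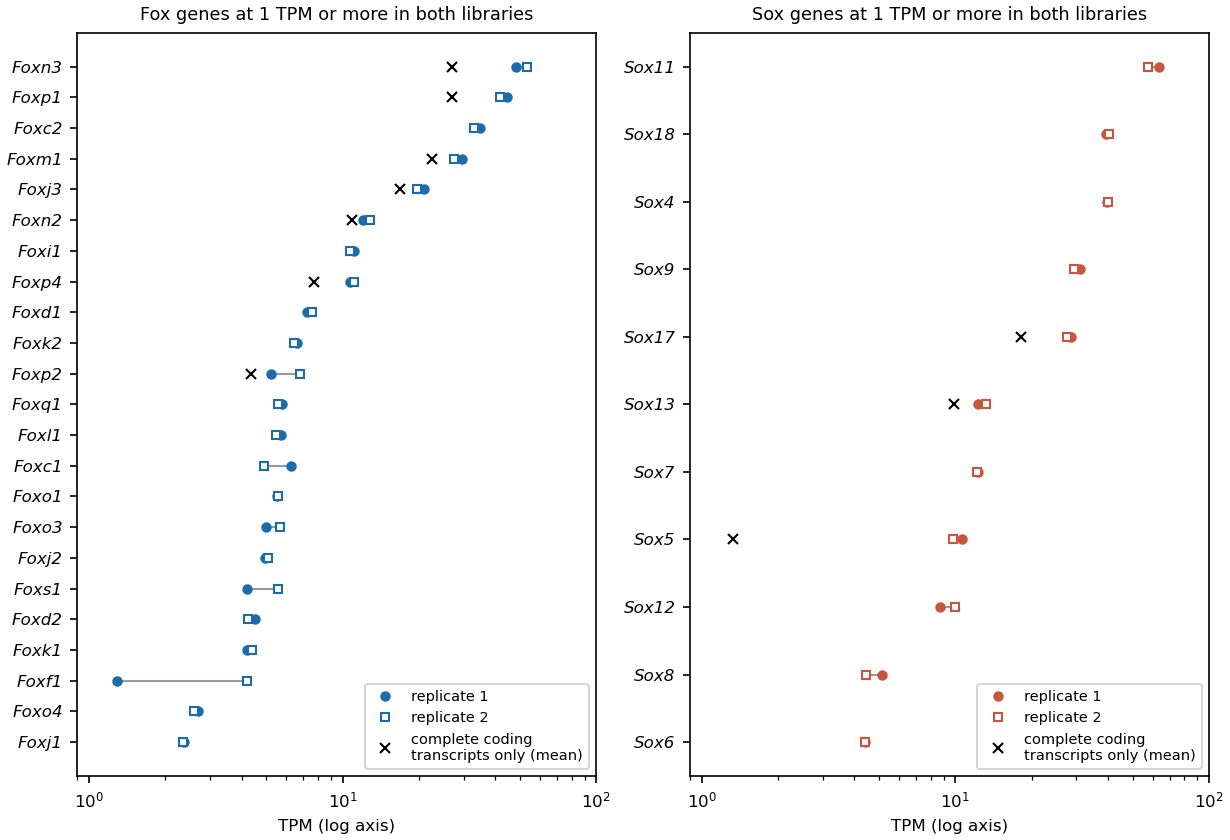
TPM on a log axis of the 23 Fox (left) and 11 Sox (right) genes detected in both libraries, with a filled circle for replicate 1, an open square for replicate 2 and a cross for the mean over complete coding transcripts where these held less than 90% of the gene's level. Most pairs of symbols touch, Foxf1 (1.29 and 4.19 TPM) is spread widest, and the cross of Sox5 lies far to the left of its symbols.

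The member with the highest mean TPM was Sox11, at 63.8 and 57.6 TPM on 12836 and 12470 counts (ENSMUSG00000063632.6, mm10 chromosome 12, 27334264 to 27342574, minus strand, a gene of 1 exon). With Sox4 and Sox12 it forms the SoxC group, known for keeping progenitors and neurons alive as they begin to differentiate. Sox4 (chromosome 13, 28948919 to 28953713) was at 39.5 and 40.04 TPM and Sox12 at 8.70 and 9.93 TPM, and the group held 43.7% and 43.0% of the Sox total. Both libraries placed Sox11 above Sox4, by a mean of 0.60 ± 0.12 on the log2(TPM + 1) scale, and above Sox12 by 2.58 ± 0.23. All pair differences below are on this scale, which makes differences from low genes smaller than their TPM ratios. The Sox4 difference was beyond the replicate error at that level but not beyond the single limit of 0.60 taken over all detected genes. A non-coding gene on the opposite strand, Gm26735, overlaps Sox4 and was listed at 23.9 and 17.1 TPM. The use of strand in counting is not stated in these sources, which leaves reads of the overlap without a certain owner.

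The SoxF genes, which specify endothelial identity, came next. Sox18 was at 39.4 and 40.4 TPM, Sox17 at 28.7 and 27.7 TPM and Sox7 at 12.3 and 12.1 TPM, so the order was the same in both libraries. Sox18 was above Sox17 by 0.49 ± 0.06 and above Sox7 by 1.63 ± 0.04 (log2), both beyond the replicate error, although the first of these did not pass the limit over all genes. All 10 endothelial markers listed were detected and summed to 504.5 and 536.9 TPM, with none differing 2-fold between the libraries. Plvap, of the diaphragms of fenestrated vessels, led them at 109.7 and 114.7 TPM, and the tight-junction claudin Cldn5 was at 76.5 and 80.5 TPM.

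Of the SoxE genes, Sox9 (chromosome 11, 112782224 to 112787760) was at 31.1 and 29.3 TPM. Sox8, its close relative, which shares work with it in ureteric tips, was at 5.12 and 4.46 TPM. Sox9 stood above Sox8 by 2.43 ± 0.06 on the log2 scale. The third gene of the group, Sox10, which maintains neural crest progenitors and glia, was at 0.33 and 0.78 TPM, below Sox9 by 4.34 ± 0.36. The 5 tip markers listed (Ret, Wnt11, Gfra1, Etv4 and Etv5) summed to 190.5 and 186.0 TPM. An antisense gene that overlaps Sox8, 2810468N07Rik, was listed at 4.67 and 5.79 TPM, as high as Sox8 itself, so the Sox8 level is uncertain where counting is not known to use strand.

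The SoxD genes encode proteins with a coiled coil that pair with each other and carry no activation domain of their own. Sox13 was at 12.3 and 13.2 TPM, Sox5 at 10.6 and 9.77 TPM and Sox6 at 4.39 and 4.40 TPM. At the gene level Sox5 was above Sox6 by 1.05 ± 0.08 (log2) and Sox13 above Sox6 by 1.35 ± 0.06, but the first of these turned round when transcripts were considered, as described further on. Sox5, Sox6 and Sox9 together drive cartilage formation, and 5 of 8 cartilage markers were detected, with sums of 60.2 and 49.4 TPM. The part of cartilage RNA in these Sox levels was not tested. The remaining Sox genes were below 1 TPM in both libraries. Of the SoxB genes, which keep neural progenitors, Sox2 was at 0.07 and 0.05 TPM, Sox21 at 0.01 and 0.06 TPM and Sox1 at 0.01 and 0 TPM, while Sox3 and Sox14 had 0 counts in both. A count of 0 allows up to 3 counts. Sox15 was at 0.16 and 0.15 TPM and Sox30, known from the testis, at 0.18 and 0.20 TPM.

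Among Fox genes of kidney mesenchyme, podocytes and vessel walls, Foxc2 led. It was at 34.7 and 33.1 TPM (chromosome 8, 121116171 to 121118895, plus strand, 1 exon), while its paralogue Foxc1, on chromosome 13, was at 6.24 and 4.89 TPM. Foxc2 was higher in both libraries, by 2.42 ± 0.16 on the log2 scale. Foxd1, the stromal progenitor factor (chromosome 13, 98354242 to 98359305), was at 7.26 and 7.54 TPM and Foxd2 at 4.50 and 4.24 TPM. The Foxd1 to Foxd2 difference of 0.65 ± 0.08 had the same sign in both libraries but stayed within the replicate error of 0.79, as did the difference of -0.36 ± 0.24 between Foxc1 and Foxd1. Sox9 exceeded Foxd1 by 1.89 ± 0.09. Foxl1, a factor of mesenchyme beneath epithelia, was at 5.69 and 5.44 TPM, Foxs1, known from pericytes, at 4.21 and 5.57 TPM, and Foxq1 at 5.79 and 5.55 TPM. The listed markers of the 2 compartments were far more abundant than these factors: the stromal list summed to 2561 and 2955 TPM and the podocyte list to 239.9 and 253.1 TPM.

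Foxi1 and Foxj1 each direct a specialised epithelial cell. Foxi1 was at 11.1 and 10.7 TPM (chromosome 11, 34204338 to 34208089), above Foxj1, the switch for motile cilia, at 2.36 and 2.34 TPM, by 1.83 ± 0.03 (log2). Of 9 genes of intercalated cells and Foxi1 targets, 7 were detected, led by the anion exchanger gene Slc4a1 at 10.4 and 16.3 TPM, which red cells make too, and the proton pump subunit genes Atp6v0a4 at 9.79 and 10.1 TPM and Atp6v0d2 at 6.49 and 3.42 TPM. Of the 7 genes of motile cilia that could be matched, Rsph1 (1.69 and 1.96 TPM) and Ccdc39 (1.44 and 1.35 TPM) were detected. Mcidas, which starts the programme of cells with many cilia, was listed at 0 and 0.02 TPM.

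Foxm1, which drives the genes of mitosis in dividing cells, was at 29.5 and 27.4 TPM. All 10 of its listed mitotic targets were detected and their sum was 1504 and 1495 TPM, led by Birc5 at 269.8 and 251.2 TPM. The Foxo factors are held in the cytoplasm when insulin-like signals activate the kinase AKT, so their RNA level does not show their activity. Foxo1 was at 5.53 and 5.57 TPM, Foxo3 at 5.0 and 5.64, Foxo4 at 2.68 and 2.60 and Foxo6 at 0.11 and 0.11. The Foxo1 to Foxo3 difference was 0.05 ± 0.10 (log2) and changed sign between the libraries, and that between Foxo3 and Foxo4 was 0.79 ± 0.13, within the replicate error of 0.92. Foxm1 was above Foxo1 by 2.17 ± 0.08. Of 12 known Foxo targets 10 were detected, led by Cited2 at 59.3 and 58.9 TPM, and all 12 listed Foxo kinases and regulators were detected.

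The Foxn and Foxp subfamilies supplied much of the Fox total, mainly through Foxn3 and Foxp1. The Foxn genes held 21% and 23% of it and the Foxp genes 21.1% and 20.7%. Foxn3, a repressor linked to cell cycle checkpoints, was the highest Fox gene at 48.1 and 53.5 TPM, above Foxn2 (12.0 and 12.8 TPM) by 1.95 ± 0.05 on the log2 scale. Foxp proteins are repressors that pair through a leucine zipper. Foxp1 was at 44.6 and 41.8 TPM, Foxp4 at 10.7 and 11.1 and Foxp2 at 5.2 and 6.78, so Foxp1 was above Foxp4 by 1.90 ± 0.10 and above Foxp2 by 2.67 ± 0.30. Foxj3 (20.9 and 19.6 TPM) was above Foxj2 (4.95 and 5.09 TPM) by 1.82 ± 0.09. Foxk2 (6.60 and 6.45 TPM) and Foxk1 (4.21 and 4.38 TPM), which carry a phosphopeptide-binding domain beside the forkhead, were within the replicate error of each other at 0.51 ± 0.05.

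In all, 17 of the 24 pairs set beside each other differed in the same direction in both libraries by more than the replicate error. The pairs were chosen as close relatives, with a few across families. The share of other gene pairs that would pass by the same rule was not computed, so the count describes these 24 pairs only. Besides the pairs named so far, Foxf1 was above Foxf2 by 1.51 ± 0.82, with a large SD that comes from Foxf1. Foxa1 and Foxa2 (0.47 ± 0.23) and Sox2 and Sox3 (0.08 ± 0.02) did not pass, but could not have done so. Foxa1 was at 0.82 and 0.76 TPM and Sox2 at 0.07 and 0.05 TPM. At such levels the pseudocount of 1 keeps any difference from a lower gene under the limit of 0.92.

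**Figure D2:**
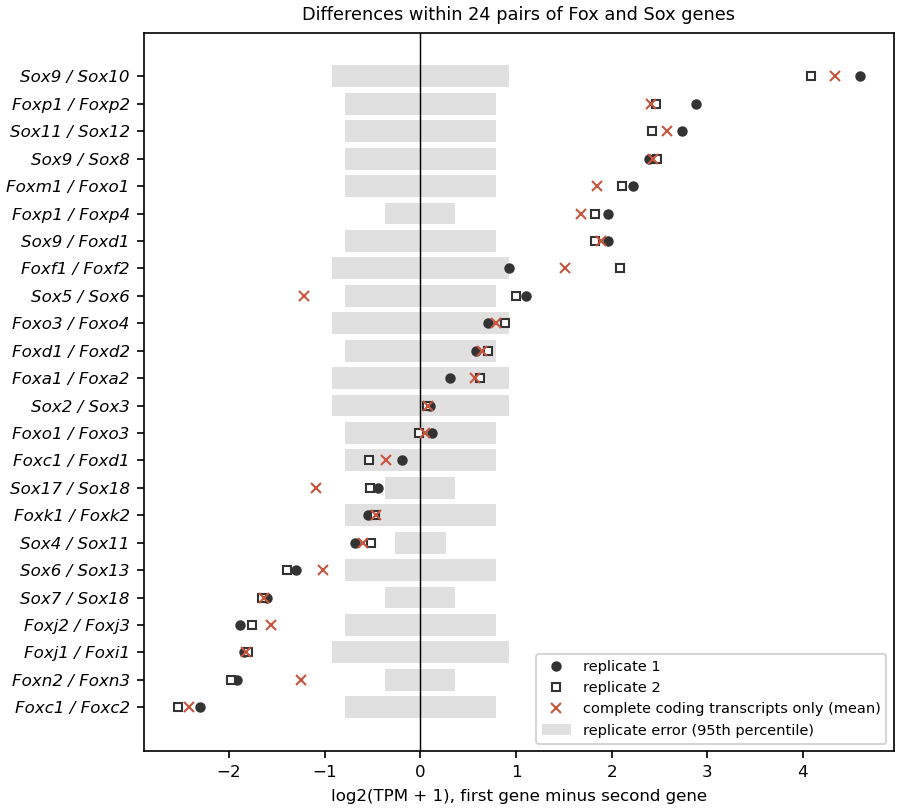
Difference in log2(TPM + 1) between the genes of each of the 24 pairs, the first named minus the second, with a circle for replicate 1, a square for replicate 2, a cross for the mean over complete coding transcripts and a grey bar for the replicate error at the lower gene. The symbols of 17 pairs lie beyond the bar in both libraries, and the cross of Sox5 and Sox6 (-1.22) lies on the other side of 0 from its circle and square (mean 1.05).

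Ranked by mean TPM, most neighbours could not be separated. Within the Fox genes 3 of 22 neighbouring steps had the same order in both libraries and exceeded the replicate error: Foxp1 above Foxc2, Foxm1 above Foxj3, and Foxj3 above Foxn2. Within the Sox genes 3 of 10 did: Sox11 above Sox18, Sox4 above Sox9, and Sox17 above Sox13. Sox18 and Sox4, with means of 39.9 and 39.8 TPM, changed places between the libraries. With both families ranked together, 2 of 33 steps were separated. The first step, Sox11 above Foxn3, was 0.41 and 0.11, beyond the replicate error of 0.27 in replicate 1 alone. These steps are log2 TPM ratios without a pseudocount.

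Below 1 TPM in both libraries were 20 Fox genes, most of them known from other organs. No count was recorded in either library for 6 of them: Foxe1 of the thyroid, Foxe3 of the lens, Foxn4 of retina and spinal cord, Foxi3 of the ectodermal placodes, Foxb2 and Foxd4. Foxl2 of the ovary (0 and 0.03 TPM), Foxn1 of the thymus (0.01 and 0.09), Foxp3 of regulatory T cells (0.01 and 0.01) and Foxd3 of the neural crest (0.13 and 0.14) were at or near 0. So were Foxb1 (0.07 and 0.11), Foxh1 (0.03 and 0.03), Foxi2 (0 and 0.03), Foxr1 (0.03 and 0.05) and Foxr2 (0.03 and 0). The Foxa genes are pioneer factors of the endoderm, and 2 of them lay close to the limit. Foxa3 was at 0.97 and 1.04 TPM on 45 and 53 counts, past it in replicate 2 alone, and Foxa1 at 0.82 and 0.76 TPM on 62 counts in each, while Foxa2 was at 0.47 and 0.14 TPM on 17 and 7 counts, an interval of 0.13 to 0.96 for the count ratio of replicate 2 over replicate 1. The summed gut endoderm markers were also lower in replicate 2 (45.6 and 3.11 TPM), and most of the replicate 1 sum was the goblet cell peptide gene Tff3 at 40.7 and 1.15 TPM. Of the 4 gut markers with enough counts 3 were 2-fold lower in replicate 2, and the fourth, Krt20, was at 1.03 and 1.37 TPM. The 6 liver markers, whose cells also make Foxa proteins, went the other way, with sums of 222.3 and 431.6 TPM. The part of gut or liver RNA in the Foxa values was not tested.

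The members repeated closely. The median absolute log2 TPM ratio between the libraries was 0.07 over the detected Fox genes and 0.09 over the detected Sox genes, beside 0.10 over detected protein-coding genes. Among the 37 members with a mean count of 20 or more, 2 differed 2-fold, Foxf1 and Sox10, and both were higher in replicate 2. Of all 16642 genes with such counts 3.43% differed 2-fold in either direction and 2.16% were higher in replicate 2, so a count of 2 among 37 is near the background.

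**Figure D3:**
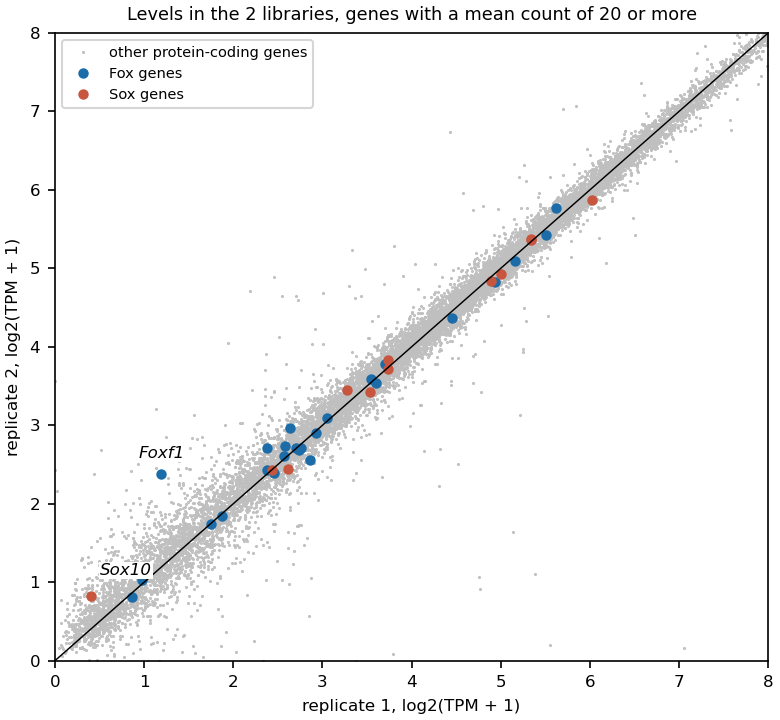
Level of each protein-coding gene with a mean count of 20 or more in replicate 1 (x axis) and replicate 2 (y axis), both as log2(TPM + 1), with Fox genes in blue, Sox genes in red and other genes in grey; the line marks equal levels. Foxf1 (1.29 and 4.19 TPM) and Sox10 (0.33 and 0.78 TPM) lie above the line and the other Fox and Sox genes lie close to it.

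Foxf1, which hedgehog signals induce in the mesenchyme of gut, lung and bladder, was at 1.29 TPM on 73 counts in replicate 1 and 4.19 TPM on 256 counts in replicate 2 (chromosome 8, 121084386 to 121088144, plus strand). The TPM ratio was 3.25, and the count ratio had an exact 95% interval of 2.48 to 4.24, which covers counting error alone. Foxf2, its paralogue, was at 0.20 and 0.22 TPM. Fendrr, a long non-coding RNA whose start lies 1276 nt from that of Foxf1 on the opposite strand, differed in the same direction, at 0.17 and 1.00 TPM on 8 and 45 counts. Foxc2 begins 28027 nt beyond the end of Foxf1 and Foxl1 lies 9045 nt beyond Foxc2, and neither shared the difference (34.7 and 33.1 TPM, and 5.69 and 5.44 TPM). A gene model that spans all 3, Gm20388, was listed at 4.37 and 7.54 TPM, so some reads within it may have been shared out between models.

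Sox10 (chromosome 15, 79154908 to 79165240) had 21 counts in replicate 1 and 54 in replicate 2, a TPM ratio of 2.36 with an interval of 1.41 to 4.12 for the count ratio. Of the 10 neural crest and Schwann cell markers, 6 were detected and 3 of the 9 with enough counts were 2-fold higher in replicate 2, among them Gfra3 (1.62 and 4.85 TPM) and Phox2a (0.59 and 1.56). Erbb3, the neuregulin receptor of Schwann cells, was level at 7.96 and 8.66 TPM. The markers of chromaffin cells, which arise from the neural crest, differed more: 4 of 5 were 2-fold higher in replicate 2, with Th, the first enzyme of catecholamine synthesis, at 4.48 and 28.7 TPM. All 5 adrenal cortex markers were 2-fold higher there too, as were 2 of the 3 nervous system markers with enough counts. The part of adrenal or nerve tissue in the Sox10 and Foxf1 differences was not tested.

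Gene-level TPM adds up all transcripts of a gene, and for some members a large part did not belong to a transcript with a complete coding sequence. Of the 34 detected members, 17 had 1 transcript in the tables and 17 had more. Classed by the GENCODE M21 annotation, complete coding transcripts held a median of 82.8% of the level of these 17, and 87.1% over all detected protein-coding genes with more than 1 transcript. They held less than 50% in 1 of the 17, Sox5, against 16.1% of such genes in all.

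**Figure D4:**
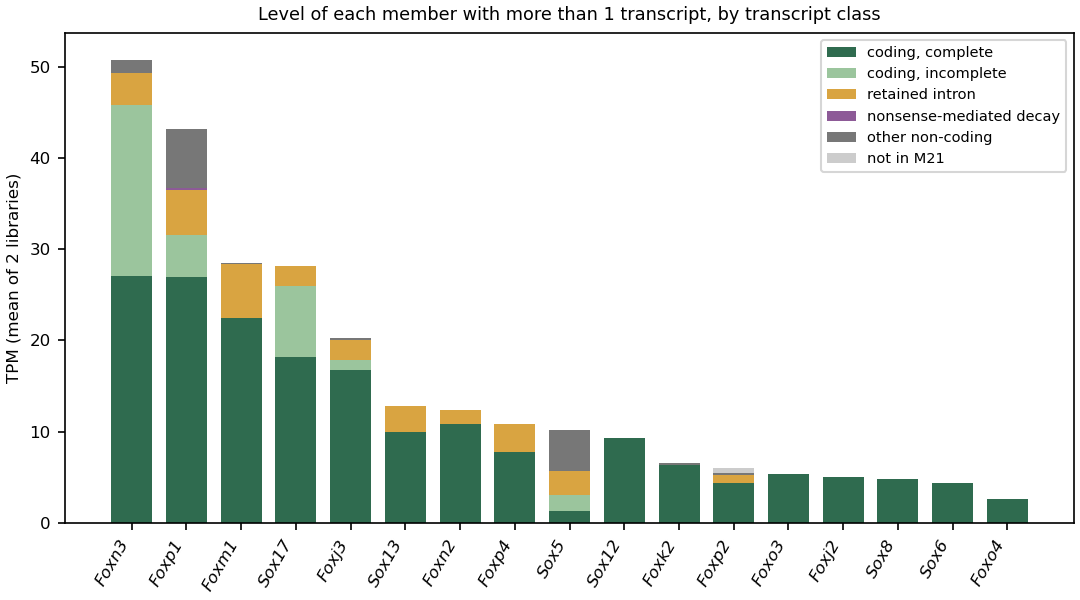
Mean TPM of the 2 libraries for the 17 detected members with more than 1 transcript, split by transcript class; each bar starts at 0 and its full height is the gene's level. Complete coding transcripts (dark green) make up nearly all of the bars of Sox12, Foxo3, Foxj2 and Sox6 and 13.0% of that of Sox5.

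By TPM, Sox5 was carried mainly by short or non-coding transcripts. A non-coding transcript of 351 nt held 38.1% and 38.6% of its TPM, a retained-intron transcript of 2791 nt 12.2% and 22.1%, and a partial coding model of 669 nt 18.5% and 14.9%. The transcript of 351 nt held 5.95% and 4.89% of the gene's counts, since TPM divides counts by length. The forms with 763, 679 and 715 codons, which are the long SoxD proteins, each held under 10% of the TPM in both libraries. By counts the form of 763 codons held 24.4% and 11.0%, that of 679 codons 6.11% and 32.4%, and that of 715 codons 19.9% and 8.09%, so the weight of the long forms depended on the unit. Summed over complete coding transcripts Sox5 was at 1.22 and 1.43 TPM, below Sox6 at 4.39 and 4.41 TPM, and the difference between the pair became -1.22 ± 0.09 (log2). Sox6 itself was led by a form of 827 codons with 54.6% and 56.4% of its TPM.

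The highest Fox gene also depended on this. Complete coding transcripts of Foxn3 gave 27.2 and 27.0 TPM, 53.3% of its level, because a partial model of 566 nt held 37.1% and 36.7%. Those of Foxp1 gave 27.4 and 26.5 TPM, 62.3% of its level. Foxc2, with 1 transcript, then stood first among the Fox genes at 34.7 and 33.1 TPM. Foxp1 had 32 transcripts in the tables, and its leading one by TPM encodes 577 codons (29.0% in each library), while one of 7177 nt that encodes 705 codons held 61.8% and 59.7% of the counts. In Sox17, 64.4% of the level was on complete coding transcripts, which include 2 forms of 419 codons and a shorter one of 291 codons (19.4% and 20.6% of TPM). On complete coding transcripts Sox18 was above Sox17 by 1.10 ± 0.10 (log2).

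The same transcript led in both libraries in 15 of the 17 members with more than 1, and in 91.9% of all such detected protein-coding genes. By TPM share the exceptions were Foxn3 and Sox13. By share of counts 15 of 17 also kept their leader, but the exceptions were Sox13 and Sox5. In Sox13 a form of 613 codons led in replicate 1 (40.5% and 36.5%) and one of 504 codons in replicate 2 (33.9% and 44.4%). Sox8 kept its form of 464 codons in the lead at 58.8% and 77.8% of TPM.

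Of the Fox genes 13 had 1 exon, of which 7 were detected, beside 16 of the 31 with more exons. Of the Sox genes 6 had 1 exon, of which Sox4 and Sox11 were detected, beside 9 of the 13 with more exons. The share of 1-exon genes over all protein-coding genes was not computed, so these counts describe the members only. Several members lie close to an abundant neighbour on the opposite strand. Foxd2os starts 384 nt from Foxd2 and was at 25.01 and 24.9 TPM, above Foxd2 itself in both libraries. Rhno1 starts 56 nt from Foxm1 and was at 98.9 and 97.6 TPM. Foxq1 and Foxf2 lie 64840 nt apart on chromosome 13 and Foxd2 and Foxe3 16274 nt apart on chromosome 4, and in each case the first was above 4 TPM and the second below 1 TPM.

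Promoter CG content was spread widely among both the detected and the undetected members. The search counted the dinucleotide CG, which reads the same on both strands, in the window of 300 bases, and 95.2% of all 16317 protein-coding promoters held at least 1. The 19 detected members with a promoter had a median of 26 CG and the 22 others a median of 22. Among protein-coding genes the medians were 21 for 10445 detected genes and 3 for 5547 genes below 1 TPM in both libraries, so the members that were not detected had a median closer to that of detected genes. The silent neural gene Sox1 had 37, Sox14 26 and Foxl2 27, while the abundant Foxn3 had 6 and Sox4 12. The Foxn3 window, on the minus strand of chromosome 12, ends at 99450324, well inside a gene that ends at 99563582. Its count of 6 is therefore that of an internal start, not of the outermost one. A CG count is a description of these windows, and many genes have further start sites that were not counted.

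**Figure D5:**
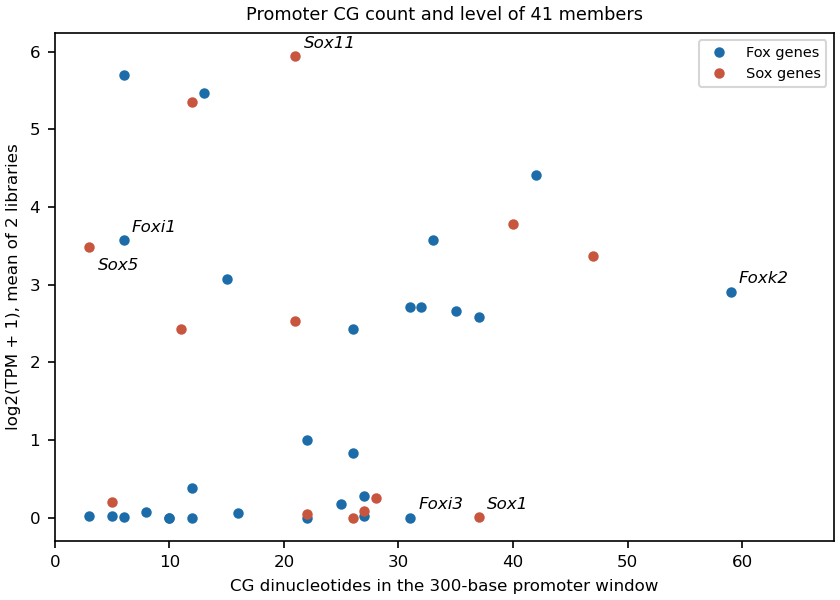
Number of CG dinucleotides in the first listed 300-base promoter window (x axis) and level as log2(TPM + 1) of the mean of the 2 libraries (y axis) for 41 Fox (blue) and Sox (red) genes. Genes near 0 on the y axis reach 37 CG (Sox1) and expressed genes go down to 3 (Sox5) and 6 (Foxi1). The Sox5 window, on the minus strand, ends at 143947356, well inside a gene that ends at 144781977.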

How the data were processed

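Long total RNA with spike-ins was sequenced from 2 pooled kidney libraries, per the labels. The reads were aligned to mm10 with GENCODE M4, per the deposited files. The aligner, quantifier and strand setting were not given in the sources used here. The expected counts, as deposited, are estimates that need not be whole. The deposited TPM values have the same sum in each library, and the deposited FPKM values served as an alternative. The authors' transcript tables also give, in percent, each transcript's share of its gene's TPM.

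Symbols, coordinates and transcript classes were taken from GENCODE M21, also on mm10 (42462 of 43346 genes matched). Of 201 member transcripts 198 were in M21, 170 with the same length. A complete coding transcript is a protein-coding one whose model lacks no end.

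The members, the 23 gene lists, the 24 pairs and the tests were chosen with earlier results of these data known. Named are members at 5 TPM or more, detected members of each subfamily, pair genes, members that differed or had 0 counts, the 3 nearest to 1 TPM on each side, and, of the lists, the 3 highest genes and any at 0. Lists given as sums depart from this and name some or none of their genes. Other genes named beside these, the neighbours and the printed promoters were chosen after their values were seen. For 1 member and 1 marker gene no values are reported here. Pair differences used a pseudocount of 1, while the replicate error was taken on TPM without one, so differences of low genes were read strictly. With a pseudocount of 0.1 all 24 pairs kept their outcome. The mean Foxo3 to Foxo4 difference was then 0.98, but it did not exceed 0.92 in both libraries. Count ratios have exact Clopper-Pearson intervals at 95%. A count of 0 allows 3 counts, and both cover counting error only. Alternatives used edgeR 4.0.16 (TMM) and DESeq2 1.42.0 (size factors) for scaling expected counts. The computations were run in Python 3.11.15 with pandas 2.3.3 and tested on simulated data.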

Additional observations from a re-analysis of the deposited data

How the results depend on the processing

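No paired analysis was possible because there is 1 group. At a limit of 5 TPM the Fox genes detected fell to 15, and over the other settings both families' counts stayed within 1.5 times. The median Fox level was 1.68 in FPKM and 5.67 over detected genes alone, and 1.83 and 2.47 with each library alone; the median Sox level was 5.32 with TPM rescaled over nuclear genes, 3.22 in FPKM and 12.8 over detected genes, and 5.12 and 4.46 with each library alone. Members that differed 2-fold numbered 1 (Foxf1) with a mean count of 100 or more, 1 (Foxf1) at 3-fold and 10 with no minimum count, the 8 added being genes of few counts, Foxa2 among them. On complete coding transcripts, an alternative chosen after seeing the data, the Sox5 to Sox6 difference turned to -1.22 (log2), 18 pairs passed; 16 of these had also passed at the gene level with the same sign, and Foxd1 above Foxd2 was added. In FPKM the Foxf1 to Foxf2 difference (1.23) no longer passed. With 1 error limit over all genes Sox4 to Sox11 and Sox17 to Sox18 did not pass and Foxo3 to Foxo4 did. By counts in place of TPM, the mean share was 10.4% for the Foxn3 transcript of 566 nt, 18.7% for the leading Foxp1 transcript, 5.42% for that of Sox5, 25.7% for that of Sox17 and 31.9% for that of Sox6, each lower than by TPM, while the Sox13 form of 504 codons was at 39.2% by TPM and 43.98% by counts. The comparison of leading transcripts and of differing members needs both libraries and was not run with 1. Levels of members below 20 counts are set by few reads.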

Other observations

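Other HMG-box genes were more abundant than the Sox genes as a sum. Of 20 listed, 19 were detected, and they summed to 2917 and 2622 TPM, led by the chromatin proteins Hmgb1 at 1415 and 1151 TPM, Hmgb2 at 350.3 and 326.9 TPM and Hmgb3 at 313.6 and 293.1 TPM. Of the 11 listed partner factors of Sox proteins 6 were detected. Ctnnb1, which encodes beta-catenin, was at 381.9 and 372.2 TPM, Pax8 at 103.6 and 104.2 TPM and Pax2 at 28.4 and 29.97 TPM.

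Of the regulators of Foxo proteins, Ywhaz, which encodes a 14-3-3 protein that holds them in the cytoplasm, was at 691.9 and 655.8 TPM, the kinase gene Akt2 at 80.1 and 86.1 TPM and Skp2 at 67.1 and 65.7 TPM. None of the 12 listed differed 2-fold between the libraries.

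Of 5 regulatory T cell genes, set beside Foxp3, Ikzf2 was detected at 3.36 and 2.97 TPM, and the list summed to 3.55 and 3.20 TPM. Of 8 gonad and germ cell genes, set beside Foxl2 and Sox30, 3 were detected, the list summed to 8.47 and 13.0 TPM, and Dmrt1 was listed at 0 in both libraries. Of 7 nervous system genes, set beside the SoxB genes, Stmn2 (11.9 and 26.9 TPM) and Tubb3 (6.53 and 17.8 TPM), which differentiated neurons make, were detected, and Olig2, of neural progenitors, was listed at 0 in both. The 6 erythroid markers summed to 3626 and 3948 TPM.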
